A study of Mus musculus with 3 samples.

Results

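In cultured mPTECs, 10 genes of reabsorptive amino acid transport in the kidney were followed: Slc3a1, Slc7a9, Slc6a19, Slc6a18, Slc6a20b, Slc36a2, Slc1a1, Slc7a7, Slc7a8 and Slc38a3. The members were the genes named so in the array files, where 14 probes outside the controls carry these names, and they make up 10 of the 19862 genes to which a probe could be assigned. The study measured total RNA of mPTECs, primary kidney cells of male mice aged 1 month, on Agilent 1-colour arrays. The groups were the freshly isolated cells (day 0) and the same kind of cells after 1 day or 3 days on culture dishes, with 1 sample and 1 array for each day. The cultured cells were kept in DMEM/F12 medium with insulin, transferrin, selenium, non-essential amino acids, 0.1 µM hydrocortisone, penicillin, streptomycin and 1% serum. Strain, genotype and the number of animals behind a sample are not used here. Because each day has a single array, differences were not tested and no p-value is given, and every ratio describes these 3 arrays.

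The kidney filters free amino acids into the tubule lumen and the proximal tubule takes nearly all of them back. Transporters of the apical brush border move amino acids from the lumen into the cell, mostly with sodium or protons or in exchange for another amino acid, and transporters of the basolateral membrane let them out towards the blood. Several of them work only as a pair with a second protein. In people, inherited loss of SLC3A1 or SLC7A9 causes cystinuria, loss of SLC7A7 lysinuric protein intolerance, and loss of SLC6A19 Hartnup disorder.

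Of the 10 genes, 6 had a signal at least 4-fold lower on day 1 than on day 0, beside 5.15% of all genes compared. On day 3 the count was again 6, beside 7.81%, and none was 4-fold higher on either day. The apical genes Slc6a20b and Slc3a1 had the lowest ratios on day 3, at 94.9-fold and 72.2-fold below day 0. In contrast, 3 genes lay within 2-fold of day 0 on both days, namely the apical glycine transporter Slc6a18, the apical proton-coupled transporter Slc36a2 and the basolateral glutamine transporter Slc38a3. The basolateral exchanger gene Slc7a8 lay near the 4-fold mark on both days. In bulk RNA, fewer cells of a type and less RNA per cell cannot be told apart.

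The probes behind the lowest ratios are shown first, since each of these genes was read by a single probe of 60 bases. Positions are those of the array design on mm9, and the sequences are given 5′ to 3′ on the strand of the gene. For Slc3a1, Slc7a9 and Slc6a20b the probes lie at chr17:85463142-85463201 (+), chr7:36248629-36248688 (+) and chr9:123504197-123504256 (-).
Slc3a1: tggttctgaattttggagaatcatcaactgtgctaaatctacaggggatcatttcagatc
Slc7a9: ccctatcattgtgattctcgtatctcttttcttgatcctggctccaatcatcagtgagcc
Slc6a20b: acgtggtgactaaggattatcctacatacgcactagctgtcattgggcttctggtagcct

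Slc6a18 is shown as an example of the genes that stayed within 2-fold of day 0, and because it was read by 3 probes. Of these, 2 overlap in the transcript and so are not separate readings of it. They lie within chr13:73803145-73803815 (-) and chr13:73803125-73803795 (-), intervals longer than a probe of 60 bases, and the capitals mark the 40 bases that both hold.
Slc6a18, first of the overlapping probes: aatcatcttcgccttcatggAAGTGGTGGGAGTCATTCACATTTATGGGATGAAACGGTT
Slc6a18, second of the overlapping probes: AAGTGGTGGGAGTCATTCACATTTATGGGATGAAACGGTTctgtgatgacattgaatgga

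Signals are given as multiples of the 75th percentile of the signal on the same array, which was 1184, 1509 and 1515 intensity units on days 0, 1 and 3. The lowest signals well above background were 1.14%, 1.06% and 0.936% of that percentile. Signals of different probes depend on the probe and are not set against each other, and only ratios between days are compared. The error column of the array files, about 10% of a bright signal, gives a log2 ratio of a single spot an error of 0.20, and the difference between the ratios of 2 genes an error of 0.29. Across the arrays, repeated spots of 1 probe had a median SD of 0.14 in log2, and different probes of 1 gene gave log2 ratios with a median SD of 0.34 on day 1 and 0.47 on day 3 against day 0. The errors of 0.20 and 0.29 leave out the spread between probes. All these values cover the measurement on the array and not the spread between cultures or animals.

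Markers of the proximal tubule were present on every array. All 16 genes of the marker list, among them Lrp2, Cubn and Slc34a1, were well above background on all 3 days, and their summed signal was 1476 on day 0, 254 on day 1 and 34.5 on day 3. Of the 16, 13 were at least 4-fold lower on day 1 than on day 0 (median log2 ratio -3.16), beside 5.15% of all genes. All 16 were so on day 3 (median -5.02), beside 7.81%. Markers of other kidney cells were measured too, and their sums follow the brightest probes of a list. The summed signal on days 0, 1 and 3 was 456, 103.5 and 23.1 for 6 loop of Henle genes with Umod and Slc12a1, 95.8, 11.7 and 4.50 for 11 distal tubule and collecting duct genes, and 9.02, 1.82 and 2.35 for 5 podocyte genes. It was 29.6, 15.8 and 5.64 for 6 endothelial genes, 14.5, 9.77 and 15.8 for 8 leukocyte genes, and 17.2, 16.9 and 37.1 for 7 fibroblast and smooth muscle genes. The median log2 ratios against day 0 on days 1 and 3 were -2.08 and -3.95 for the loop of Henle, -2.44 and -3.06 for the distal tubule and collecting duct, -2.19 and -1.74 for podocytes, and -0.75 and -2.37 for endothelial genes. They were -0.19 and -0.13 for leukocyte genes, of which 1, Cd68, was at least 4-fold higher on each day. They were -0.19 and 0.66 for fibroblast and smooth muscle genes, of which 2 were at least 4-fold higher on day 3. Of all genes, 3.37% were 4-fold higher on day 1 and 5.32% on day 3. None of these lists had a gene at 0, and all their genes were well above background on every array except 1 of the distal tubule and collecting duct genes on day 3. The part of these other cells in the transporter ratios was not tested.

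**Figure D1:**
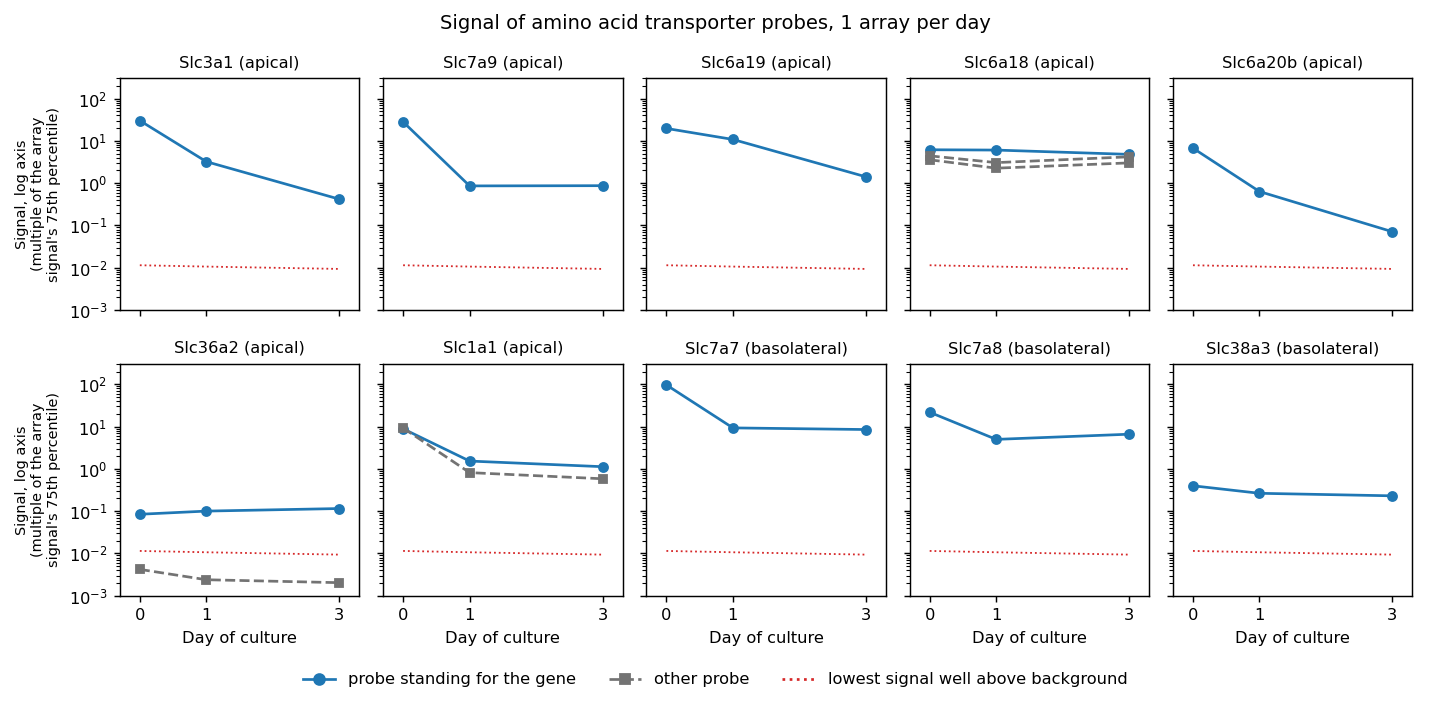
Signal of each probe of the 10 transporter genes on days 0, 1 and 3 of culture, as a multiple of the array signal's 75th percentile on a log axis, with 1 array per day. Blue circles are the probe standing for the gene, grey squares its other probes, and the red dotted line is the lowest signal well above background. Slc3a1 and Slc6a20b step down at both days, Slc7a9 and Slc7a7 step down by day 1 and then stay level, and Slc6a18 stays within 2-fold.

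The first apical system is a pair. Slc3a1 encodes rBAT, the heavy chain that brings the complex to the brush border, and Slc7a9 encodes its light chain b0,+AT, the exchanger that takes up cystine and the basic amino acids. The signal of Slc3a1 was 30.2 on day 0, 3.23 on day 1 and 0.418 on day 3. The signal of Slc7a9 was 28.2 on day 0, 0.862 on day 1 and 0.872 on day 3. Both were highest in fresh cells, but Slc7a9 reached its low signal within the first day and Slc3a1 did not.

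For Slc3a1 the log2 ratio was -3.22 on day 1 and -6.17 on day 3 against day 0, that is 9.35-fold and 72.2-fold lower, where 2 errors allow 54.4-fold to 95.8-fold for day 3. For Slc7a9 it was -5.03 on day 1 and -5.01 on day 3, that is 32.7-fold and 32.3-fold lower, where 2 errors allow 24.6-fold to 43.4-fold for day 1. On the log2 scale, 52.2% of the day 3 difference of Slc3a1 and 100.3% of that of Slc7a9 were in place on day 1. The partners stood apart in opposite directions on the 2 days. The log2 ratio of Slc3a1 minus that of Slc7a9 was 1.81 on day 1 and -1.16 on day 3, each against an error of 0.29. That error is of the spots alone, and each partner had 1 probe. Different probes of 1 gene had a median SD of 0.47 in the day 3 log2 ratio, so the day 3 difference is the less certain. Between the days of culture, Slc3a1 was 7.72-fold lower on day 3 than on day 1, whereas Slc7a9 differed by 1.01-fold. Of all genes compared, including those whose ratio is a bound, 25 had a lower day 1 ratio than Slc7a9 and 68 a lower day 3 ratio than Slc3a1.

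The second apical group consists of sodium-coupled transporters of the Slc6 family. Slc6a19 encodes B0AT1, the main carrier of neutral amino acids at the brush border, and Slc6a18, its neighbour on chromosome 13, encodes B0AT3, which carries glycine and other neutral amino acids in the mouse. Both proteins need collectrin, the product of Cltrn (Tmem27 on the array), to reach the kidney's brush border. The signal of Slc6a19 was 19.7 on day 0, 10.8 on day 1 and 1.41 on day 3. Its probe lies at chr13:73818885-73818944 (-). Most of its difference came after day 1, since it was 1.82-fold lower on day 1 and 13.9-fold lower on day 3 against day 0, and 7.65-fold lower on day 3 than on day 1. In log2 the ratios were -0.87 on day 1 and -3.80 on day 3, so 22.7% of the day 3 difference was in place on day 1, the lowest share of the 6 genes that were 4-fold lower on day 3.

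Slc6a18 differed from its neighbour. The probe standing for the gene, at chr13:73799516-73799575 (-), had a signal of 6.17 on day 0, 6.07 on day 1 and 4.80 on day 3. The first of the overlapping probes had 4.43, 3.06 and 4.20 on days 0, 1 and 3, and the second had 3.57, 2.26 and 3.02. None of the 3 probes moved by 2-fold between any of the days. The log2 ratios against day 0 ran from -0.66 to -0.02 over the probes on day 1 and from -0.36 to -0.08 on day 3, and the sign of the gene's ratio turned positive under some of the alternative settings, with values from -0.40 to 0.19 on day 1 and from -0.74 to 0.17 on day 3. On day 3 the log2 ratio of Slc6a19 minus that of Slc6a18 was -3.44, or 10.8-fold apart, against an error of 0.29. On day 1 this difference was -0.84 with the probe standing for Slc6a18, but the other probes of Slc6a18 stood closer to it.

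Collectrin itself was among the genes with lower signals. Cltrn had a signal of 125 on day 0, 22.3 on day 1 and 3.02 on day 3, which was 5.59-fold and 41.3-fold lower on days 1 and 3 than on day 0. Against its chaperone, the day 3 log2 ratio of Slc6a18 was 5.00 higher, that is 32.1-fold apart, and that of Slc6a19 was 1.57 higher. Between day 3 and day 1, the log2 ratio of Slc6a19 minus that of Cltrn was -0.05, smaller in size than the error of 0.29.

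Slc6a20b belongs to the same family, and what its product carries was not measured here. It had a signal of 6.73 on day 0, 0.634 on day 1 and 0.0709 on day 3. The signal was lower at each step, and on day 3 it was low but still above the lowest signal well above background. It was 10.6-fold lower on day 1 and 94.9-fold lower on day 3 than on day 0 (log2 ratios -3.41 and -6.57), where 2 errors allow 71.2-fold to 127-fold for day 3. That is the lowest day 3 ratio of the 10 members, and 56 other genes had a lower one. With normexp the day 3 log2 ratio of Slc6a20b was -5.74, a smaller difference than 2 errors allow, and that of Slc3a1 was lower, at -6.20. The neighbouring gene Slc6a20a, whose product carries imino acids, had 0.836, 0.348 and 0.386 on days 0, 1 and 3, and was 2.17-fold lower on day 3 than on day 0. The log2 ratio of Slc6a20b minus that of Slc6a20a was -2.14 on day 1 and -5.45 on day 3, each against an error of 0.29.

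The remaining apical genes went different ways. Slc1a1 encodes EAAT3, which takes up glutamate and aspartate with sodium and is the transporter lost in dicarboxylic aminoaciduria. It was read by a pair of probes that lie at base 2273 and base 3589 of its transcript, at chr19:28987016-28987075 (+) and chr19:28988332-28988391 (+). The first of these gave 8.86, 1.53 and 1.13 on days 0, 1 and 3, and the one further along gave 9.25, 0.815 and 0.583. Both probes had their highest signal in fresh cells and most of the difference by day 1. On day 3 the first was 7.87-fold lower than on day 0 (log2 ratio -2.98) and the other 15.9-fold lower (log2 ratio -3.99), so the size of the difference depended on the probe, while its direction did not.

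Slc36a2 encodes PAT2, a proton-coupled carrier of glycine and proline. Its signal was low on every array, at 0.0843 on day 0, 0.100 on day 1 and 0.115 on day 3, and was 1.19-fold higher on day 1 and 1.37-fold higher on day 3 than on day 0. At 2 errors the fold on day 1 ran from 0.887 to 1.59, which includes no difference. Over the alternative settings its log2 ratio on day 1 ran from -0.28 to 0.50. The sign of its log2 ratio on day 3 turned negative (-0.30) where all its probes were averaged, and that mean includes a second probe of the gene, at chr11:54981995-54982054 (-), which was not well above background on any array.

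**Figure D2:**
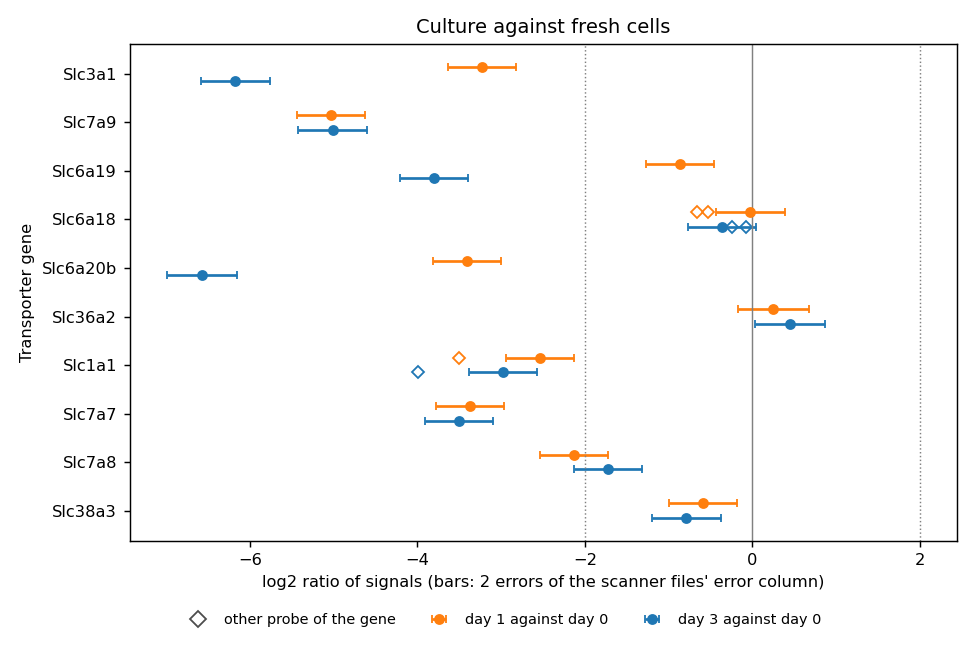
Log2 ratio of the signal on day 1 (orange) and day 3 (blue) against day 0 for each transporter gene, with bars of 2 errors from the array files' error column and open diamonds for other probes well above background. Dotted lines mark a 4-fold difference. Slc3a1, Slc6a19 and Slc6a20b have day 3 values well to the left of their day 1 values, whereas the other genes have both days close together.

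On the basolateral side, Slc7a7 encodes y+LAT1, which exports basic amino acids, and Slc7a8 encodes LAT2, which exchanges neutral ones. Both are light chains that need the heavy chain 4F2hc, the product of Slc3a2. Slc7a7 had a signal of 96.6 on day 0, 9.31 on day 1 and 8.51 on day 3. It was 10.4-fold lower on day 1 and 11.3-fold lower on day 3 than on day 0 (log2 ratios -3.38 and -3.50), so that 96.3% of the day 3 difference was in place on day 1. Slc7a8 had a signal of 21.8 on day 0, 4.98 on day 1 and 6.60 on day 3. It was 4.38-fold lower on day 1, just past the 4-fold mark, and 3.31-fold lower on day 3, just short of it, with 2 errors spanning the mark on both days. On both days of culture the signals of these light chains were below the fresh cells, and neither was 2-fold apart between day 3 and day 1.

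The heavy chain did not follow them. Slc3a2 had a signal of 34.6 on day 0, 35.1 on day 1 and 34.2 on day 3. Its log2 ratio against day 0 was 0.02 on day 1 and -0.02 on day 3, and a second probe gave 0.38 and 0.05. The log2 ratio of Slc7a7 minus that of Slc3a2 was -3.40 on day 1 and -3.48 on day 3, against an error of 0.29. For Slc7a8 the difference from Slc3a2 was -2.15 on day 1 and -1.70 on day 3. Slc7a7 and Slc7a8 lie near each other on chromosome 14, with probes at chr14:54989166-54989225 (-) and chr14:55341137-55341196 (-), and the log2 ratio of Slc7a7 minus that of Slc7a8 was -1.78 on day 3.

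Slc38a3 encodes SNAT3, a sodium-coupled glutamine transporter through which proximal tubule cells take up glutamine from the blood for ammonia production. Its signal, read at chr9:107553825-107553884 (-), was 0.398 on day 0, 0.264 on day 1 and 0.230 on day 3. It was 1.51-fold lower on day 1 and 1.73-fold lower on day 3 than on day 0. At 2 errors the fold ran from 1.13 to 2.0 on day 1 and from 1.302 to 2.30 on day 3. In the main setting the difference from day 0 was thus larger than 2 errors of the spots but below 4-fold. Over the alternative settings the log2 ratio ran from -0.91 to -0.38 on day 1 and from -1.16 to -0.26 on day 3. The values of -0.38 (median scaling) and -0.26 (spike-in scaling) lay within 2 errors, and that of -1.16 (reference gene scaling) was past 2-fold.

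The shares of all genes given with the members' counts refer to 18910 genes compared on day 1 and 19105 on day 3 against day 0. At least 4-fold higher were 0 of the 10 members on day 1, beside 3.37% of all genes, and 0 on day 3, beside 5.32%. The genes that made up the 6 lower ones were Slc3a1, Slc7a9, Slc6a20b, Slc1a1 and Slc7a7 on both days, with Slc7a8 on day 1 and Slc6a19 on day 3. On day 3 against day 1, Slc3a1, Slc6a19 and Slc6a20b were at least 4-fold lower, which is 3 of 10 beside 1.27% of 19005 genes, and 0 were higher, beside 1.62%. The median log2 ratio of the members was -2.33 on day 1 and -3.24 on day 3 against day 0, where the median of all genes was -0.11 on both days, and it was -0.27 on day 3 against day 1, where all genes had -0.04. The members are far from uniform, since their log2 ratios spanned -5.03 to 0.25 on day 1 and -6.57 to 0.45 on day 3.

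**Figure D3:**
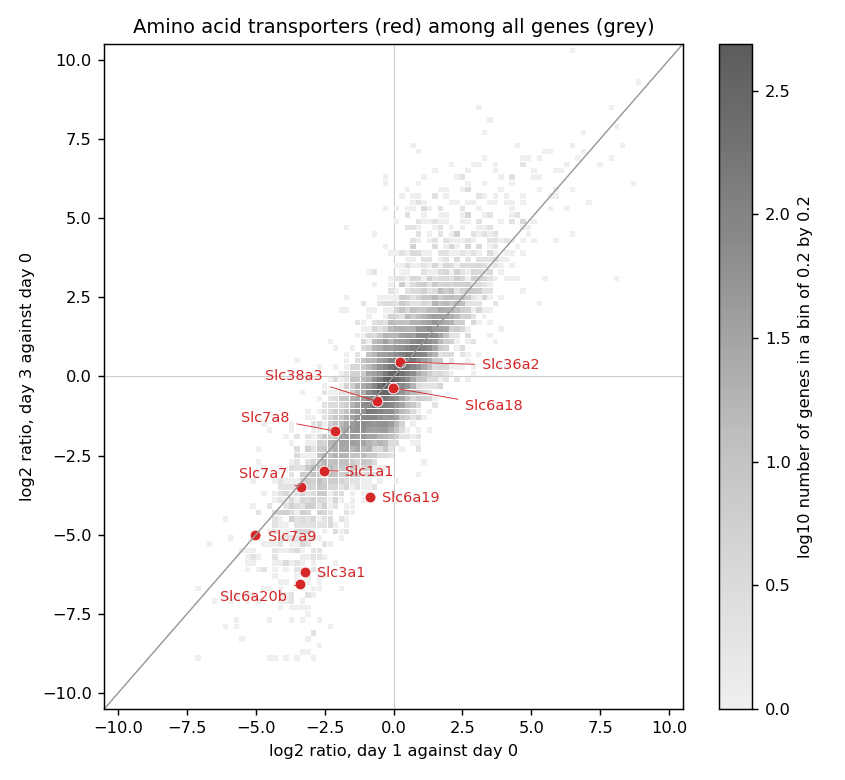
Log2 ratio on day 3 against day 0 (vertical) over log2 ratio on day 1 against day 0 (horizontal) for all genes, in grey by the number of genes in a bin of 0.2 by 0.2, with the 10 transporter genes in red. The 2 axes share the day 0 array, so the grey cloud lies along the diagonal for that reason too. Slc7a9, Slc7a7, Slc1a1 and Slc7a8 lie near the diagonal of equal ratios, and Slc3a1, Slc6a20b and Slc6a19 lie below it.

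Of 6 partner and scaffold genes, 3 were at least 4-fold lower on both days against day 0, beside 5.15% of all genes on day 1 and 7.81% on day 3. At least 4-fold higher were 0, beside 3.37% and 5.32%, and the medians were -1.58 on day 1 and -1.50 on day 3. Among the 3 lower genes were Cltrn and Pdzk1, which encodes a scaffold protein of the brush border. Pdzk1 had signals of 75.2, 5.47 and 3.92 on days 0, 1 and 3 and was 19.2-fold lower on day 3 than on day 0. Slc3a2, Bsg, which encodes basigin, and Slc9a3r1, which encodes the scaffold Nherf1, lay within 2-fold of day 0 on both days. On day 3 against day 1, 1 of the 6 was at least 4-fold lower, beside 1.27% of all genes, and this was Cltrn.

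Other amino acid transporters of the plasma membrane included genes on both sides. Of 30 such genes, 29 could be compared on day 1 and 30 on day 3. One of the 30, Slc7a10, was dim on day 0, gave no usable ratio on day 3 and was entered at a log2 ratio of 0. At least 4-fold higher than on day 0 were 7 on day 1, beside 3.37% of all genes, and 8 on day 3, beside 5.32%. At least 4-fold lower were 4 on day 1, beside 5.15%, and 5 on day 3, beside 7.81%. The median log2 ratios were -0.33 and -0.62, beside -0.11 for all genes on both days. The 7 higher on day 1 were also higher on day 3. They were Slc7a11, the cystine-glutamate exchanger xCT, with signals of 0.0215, 1.05 and 0.849 on days 0, 1 and 3, the basic amino acid carriers Slc7a1 and Slc7a3, the light chains Slc7a5 and Slc7a6, and the neutral amino acid carriers Slc1a4 and Slc38a1.

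The exchangers that share 4F2hc could be set side by side. Slc7a5 encodes LAT1, a light chain of growing cells that carries large neutral amino acids, and it had signals of 0.331, 2.05 and 3.99 on days 0, 1 and 3, 12.1-fold higher on day 3 than on day 0. Slc7a6 encodes y+LAT2, the close relative of y+LAT1, and had 0.131, 0.544 and 0.851, 6.48-fold higher on day 3, with its 3 probes between 2.70 and 3.24 in log2. Slc7a11 was 39.4-fold higher on day 3 than on day 0 by the probe standing for it, a log2 ratio of 5.30. The lowest of its 4 probes gave 3.98. Its day 0 signal of 0.0215 was near the lowest signal well above background, 1.14% of the 75th percentile on that array, so the size of this fold is uncertain. Slc7a7 and Slc7a8 were the light chains of the reabsorbing tubule and were lower on both days. The common heavy chain gene Slc3a2 had nearly the same signal on the 3 days.

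Of the carriers of basic amino acids, Slc7a3 had 0.110, 0.711 and 3.46 on days 0, 1 and 3, which was 31.5-fold higher on day 3 than on day 0 and 4.87-fold higher than on day 1. Slc7a1 had 0.398, 3.62 and 5.21 and was 13.1-fold higher on day 3 than on day 0, but a second probe of Slc7a1 gave a log2 ratio of 0.30 where the first gave 3.71. Slc1a4 was 4.59-fold higher on day 3 (log2 ratio 2.20, and 1.42 by its other probe), and Slc38a1 was 10.6-fold higher (log2 ratio 3.41, with the lowest of 5 probes at 1.18). Slc1a2, a glutamate transporter best known from astrocytes, was 8.51-fold higher on day 3 by the probe standing for it and not by all of its 5 probes, the lowest of which gave -0.21 in log2. The sizes for these genes with several probes thus depend on the probe.

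The 4 genes lower on both days were Slc7a12, Slc6a13, Slc7a2 and Slc7a13. Slc7a12, a member of the light chain family found in the mouse kidney, had 6.86, 0.282 and 0.0665 on days 0, 1 and 3 and was 103-fold lower on day 3 than on day 0. Slc6a13, which encodes the taurine and GABA transporter GAT2, had 7.82, 0.672 and 0.228 and was 34.3-fold lower. Slc7a2 and Slc7a13 had low signals and were 6.93-fold and 4.88-fold lower on day 3. Slc36a1, which encodes PAT1, was 5.77-fold lower on day 3 and 2.49-fold lower on day 1, and its second probe gave -0.43 in log2 on day 3 where the first gave -2.53. Slc16a10, which encodes the basolateral exporter of aromatic amino acids TAT1, had 2.90, 1.42 and 0.795 and was 3.64-fold lower on day 3. The probe standing for it gave -1.86 in log2 on day 3, and the lowest of its 3 probes gave -2.58, past the 4-fold mark.

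**Figure D4:**
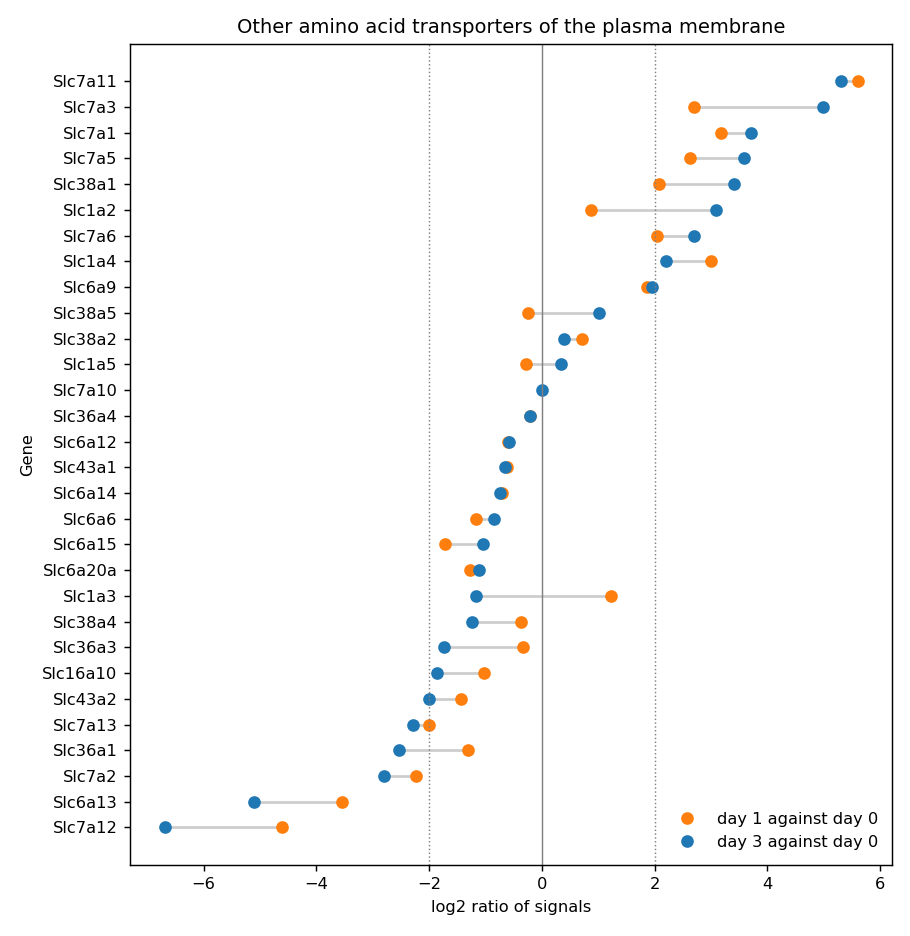
Log2 ratio against day 0 on day 1 (orange) and day 3 (blue) for 30 other amino acid transporter genes of the plasma membrane, sorted by the day 3 ratio, each from the probe standing for the gene, with dotted lines at a 4-fold difference. The 8 genes at the top, from Slc7a11 to Slc1a4, are at least 4-fold higher on day 3, and the 5 at the bottom, from Slc7a12 to Slc7a13, are at least 4-fold lower. Slc7a10 is drawn at 0 on day 3 because it gave no usable ratio, and it has no day 1 value.

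Nuclear factors, most of them known to drive proximal tubule genes, were compared on the same arrays. Of 8 listed factors, 7 could be compared, the exception being the intestinal factor gene Cdx2, which was not well above background on any array. Of the 7, the 3 factors Hnf4a, Ppara and Nr1h4 were at least 4-fold lower on both days against day 0. Of all genes, 5.15% were so on day 1 and 7.81% on day 3. The medians over the 7 were -1.81 on day 1 and -1.63 on day 3. Hnf4a had signals of 12.3, 1.39 and 1.17 on days 0, 1 and 3 and was 10.6-fold lower on day 3 than on day 0. However, 1 of its 3 probes gave -0.87 in log2 on day 3. Maf was short of 4-fold by the probe standing for it, at -1.81 on day 1 and -1.63 on day 3. The lowest of the 4 Maf probes gave -4.81 and -5.06, so whether Maf counts depends on the probe. On day 3 against day 1 none of the 7 was 4-fold apart in either direction.

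Promoter sequences from RefSeq (GRCm38.p6) were found for 7 of the 10 members, with 12 windows of 300 bases in all, each from 250 bases before a gene's start to 50 after it. The letters CAAAGTCCA, a form of the Hnf4a binding motif, were searched on both strands and occurred in 1 of the 12 windows, and in 0.475% of all 32851 promoter windows. Another motif was searched in the same windows and is not reported here. The window with a match was that of Slc3a1, where the motif begins 39 bases before the start. A match describes these letters and not a site of binding. The 250 bases before the start of Slc3a1, at chr17:85028097-85028346 (+) on GRCm38.p6, are shown because Slc3a1 had one of the lowest day 3 ratios, with the Hnf4a motif in capitals.
Slc3a1 promoter: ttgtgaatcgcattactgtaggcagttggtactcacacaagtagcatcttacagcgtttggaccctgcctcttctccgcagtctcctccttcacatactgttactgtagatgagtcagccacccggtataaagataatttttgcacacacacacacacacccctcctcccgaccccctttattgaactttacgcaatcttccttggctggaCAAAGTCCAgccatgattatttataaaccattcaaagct

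The genes whose pair of ratios lay nearest to the members' median pair were Tmem213, Auh, Cbs, Kif12 and Pink1, out of 17232 genes well above background on all 3 arrays. The measure was the Euclidean distance between pairs of log2 ratios, day 1 and day 3 against day 0, and it was 0.02 for Tmem213 and 0.09 for Pink1. Tmem213 had signals of 15.2, 2.97 and 1.62 on days 0, 1 and 3, and Cbs, which encodes an enzyme that makes cystathionine from homocysteine, had 1.77, 0.360 and 0.180. Auh encodes an enzyme of leucine breakdown and had 21.7, 4.28 and 2.40. With 3 arrays the likeness rests on 2 ratios that share the day 0 array. It is a likeness to the median pair and not to the members one by one. Their log2 ratios spanned -5.03 to 0.25 on day 1 and -6.57 to 0.45 on day 3.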

How the data were processed

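RNA of mPTECs on days 0, 1 and 3 was hybridised to 1 Agilent array a day, from 1 µg of RNA amplified linearly and labelled with Cy3, per the labels. Per the file headers, Feature Extraction 10.5.1.1 gave each spot's processed signal, mean signal, local background and background-subtracted signal as an intensity, with other flags set to 0 or 1, whereas the submitters' processing notes name version 9.1. All 3 arrays were on 1 slide. A multiplicative trend correction altered the processed signals on days 0 and 1 but not on day 3, as tested on the files against the background-subtracted signals. For spots well above background the relative difference was at most 0.394, 0.469 and 5.0e-06 on days 0, 1 and 3. With the background-subtracted signal, the log2 ratio of Slc6a18 on day 3 against day 0 was -0.02, beside -0.36 in the main setting. The authors also deposited a value table on a linear scale, a ratio of the processed signal to the array's 75th percentile: for each array, the 43379 values differed from it by less than 0.001, and its column medians were 0.187, 0.162 and 0.151.

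Each array held 45018 spots, 1639 of them controls. Outlier flags removed 94, 102 and 85 spots on days 0, 1 and 3, none was saturated, and spots of a probe were averaged as log2 signal over the 75th percentile. Of 41174 probes, 26875 were named by transcript accession in the RefSeq mouse table, 5024 by symbol, 832 by synonym, and the members' 14 by the name in the files, and 8429 had no name. The probe with the highest mean signal over the 3 arrays stood for a gene. Genes with all probes dim on both arrays of a comparison were dropped from it, and a bound replaced a signal dim on 1 of them. Where the probe standing for a gene was dim on both arrays but another probe was not, the gene was kept at a log2 ratio of 0. The same was done where the bound turned the direction of the ratio. Log2 ratios of at least 2 in size, that is 4-fold, were counted. No test was possible with 1 array per day. Probe positions are on mm9, and exon or UTR positions are not used here.

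The members, gene lists and comparisons were chosen with earlier results of these data known. All 10 members, all called genes of the partner and transporter lists, examples from other lists, and the 5 genes nearest to the members' median were named, except that a few list genes are not reported here. The lists held 6 partner genes, 30 other plasma membrane transporters, 9 peptide and lysosomal transporters, 8 nuclear factors, 10 amino acid starvation factors, reference genes and 7 sets of cell type markers. Python 3.11.15 with numpy 2.4.6 and pandas 2.3.3, and R 4.3.3 with limma 3.58.1, were used. The scripts were tested on simulated data. Alternatives were 4 other scalings (median, reference genes, spike-in controls, quantile), normexp with an offset of 50, the background-subtracted signal, the mean of a gene's probes, no bound and no background filter, outlier spots kept, and the authors' value table.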

Additional observations from a re-analysis of the deposited data

How the results depend on the processing

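Of the members, 5 to 6 were at least 4-fold lower on day 1 against day 0 over the 10 alternatives, 6 to 7 on day 3 against day 0, and 3 on day 3 against day 1. The counts moved through Slc7a8, which stood at -1.92 on day 1 with median scaling and -1.97 with spike-in scaling, and at -2.10 on day 3 with reference gene scaling. Scaling on 288 spike-in spots added 0.17, 0.53 and 0.36 to the log2 ratios of day 1 against day 0, day 3 against day 0 and day 3 against day 1. With it, the median of the members was -2.71 on day 3 against day 0, and 0.094 on day 3 against day 1, beside -0.27 with the 75th percentile. The members' median minus that of all genes stayed between -2.46 and -2.13 on day 1 and between -3.40 and -3.12 on day 3 against day 0. Median, reference gene and spike-in scaling add the same amount to every ratio of a comparison. This difference is therefore nearly fixed under them in advance, and its steadiness there says nothing about the scaling. The authors' value table holds the same quantity as the main setting. The number of all genes 4-fold apart between day 3 and day 1 was 345 with normexp and 548 in the main setting. Normexp also moved Slc6a20b on day 3 against day 0 to -5.74. The cause was not tested. With spike-in, median and reference gene scaling, 49.0%, 51.7% and 24.9% of the genes called on day 1 against day 0 were higher, beside 39.6% in the main setting. On day 3 against day 0 these shares were 66.8%, 56.3% and 25.0% beside 40.5%, and on day 3 against day 1 they were 77.9%, 63.6% and 52.8% beside 56.0%. The 12 reference genes had median log2 ratios of 0.45 on day 1 and 0.57 on day 3, none 4-fold apart. Besides Slc6a18 and Slc36a2, the sign of the ratio of day 3 against day 1 of Slc7a7, Slc7a9 and Slc38a3 changed in at least 1 alternative. No paired analysis was possible because each day has 1 sample. The number of arrays limits the precision. Signals near background, such as those of Slc36a2, that of Slc6a20b on day 3 and that of Slc7a11 on day 0, are the least certain.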

Other observations

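Genes that respond when cells lack amino acids were compared too. Of 10 factors and targets of that response, 4 were at least 4-fold higher on day 1 than on day 0, beside 3.37% of all genes, the same 4 on day 3, beside 5.32%, and 0 were 4-fold lower, with median log2 ratios of 1.68 on day 1 and 1.67 on day 3, beside -0.11 for all genes. These were Trib3, Chac1, Atf5 and Asns. Asns, the asparagine synthetase, had signals of 1.73, 55.7 and 50.3 on days 0, 1 and 3, and Atf5 had 3.55, 53.6 and 19.2. Atf4, the factor at the head of this response, was 3.23-fold higher on day 1 and 2.85-fold higher on day 3 against day 0. Chac1, which degrades glutathione, had 0.879, 7.04 and 10.6. Ddit3 and Cebpb lay within 2-fold of day 0 on both days, as did Sesn2, whose log2 ratio was 0.41 on day 1 and -0.34 on day 3. On day 3 against day 1 none of the 10 was 4-fold apart in either direction. A link between this list and the transporters was not tested.

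Of 9 peptide transporters and lysosomal amino acid exporters, 8 were well above background in the comparisons. On day 1 against day 0, 1 was at least 4-fold lower, beside 5.15% of all genes, and 0 higher, beside 3.37% (median -0.11). On day 3 against day 0, 2 were lower, beside 7.81%, and 1 higher, beside 5.32% (median -0.19). Slc15a2, the apical peptide transporter PEPT2, had signals of 13.5, 1.23 and 0.308 on days 0, 1 and 3 and was 43.8-fold lower on day 3 than on day 0. Ctns, which encodes the lysosomal cystine exporter cystinosin, was within 2-fold on day 1 and 4.51-fold lower on day 3. Slc15a3 was 7.06-fold higher on day 3.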
